A study of Mus musculus with 9 samples.

Results

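The heat shock genes described here encode the inducible and constitutive chaperones of the cytosol and the chaperonin pair of mitochondria. They were chosen by name, with earlier results of these data known, as 10 genes whose every probe in the platform annotation was taken. Of these 10, 8 were paired with a probe: Hspa1a, Hsph1, Hspa8, Hspd1, Hspe1, Dnajb1, Hspb1 and Hsp90aa1. Hspa8, Hspd1 and Hsp90aa1 had 2 probes each, which gave 11 of the 25697 probes measured. Hspa1b and Hsp90ab1 were paired with no probe (0 each) and were not analysed here. The probes were read on 9 bead arrays of mouse ntESCs (embryonic stem cells made by nuclear transfer), which are pluripotent cells from embryos made by moving a somatic nucleus into an enucleated egg. The arrays fell into 3 genotypes on a C57BL/6 background with 3 arrays each. Terc-/- cells lack both copies of Terc, the gene for the RNA template of telomerase, Terc+/- cells have lost 1 copy, and Terc+/+ cells carry both. All were grown without serum, with KSR and LIF, on mouse embryonic fibroblasts (MEFs) treated with mitomycin-C, which were removed after trypsin and before RNA extraction. The labels call the 3 samples of a genotype biological repeats without saying whether they were separate lines or cultures of 1 line, so p-values measure only the spread between these samples, which may be partly technical.

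Heat shock proteins are chaperones that bind unfolded polypeptides. In the cytosol, Hsp70 proteins work with J-domain proteins such as Dnajb1, which deliver clients and stimulate the ATPase, with Hsp110 proteins such as Hsph1, which exchange the nucleotide, and with Hsp90, which finishes the folding of kinases and receptors. Many of these genes are induced by heat and proteotoxic stress through the transcription factor Hsf1, which binds inverted GAA repeats called heat shock elements as a trimer. Hspa8 and one Hsp90 form are made at high levels without stress, whereas Hspa1a is the classic inducible Hsp70.

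The promoters of the gene with the largest difference, its close paralog, and the pair Hspd1 and Hspe1 are shown. Hspd1 and Hspe1 lie head to head on chromosome 1. Matches to repeat units of the heat shock element are marked, and whether Hsf1 binds them in these cells was not tested. Each window is from RefSeq (GRCm38.p6), runs 5′ to 3′ on the gene's strand, and covers 250 bases before to 50 bases after the start. Capitals mark matches to GAANNTTC or TTCNNGAA, which are 2 facing repeat units and read the same on both strands, and where matches overlap the capitals run together. The Hspa1a window is chr17:34972107-34972406 (minus strand), the Hspa1b window chr17:34959189-34959488 (minus strand) and the Hspe1 window chr1:55087898-55088197 (plus strand).
Hspa1a: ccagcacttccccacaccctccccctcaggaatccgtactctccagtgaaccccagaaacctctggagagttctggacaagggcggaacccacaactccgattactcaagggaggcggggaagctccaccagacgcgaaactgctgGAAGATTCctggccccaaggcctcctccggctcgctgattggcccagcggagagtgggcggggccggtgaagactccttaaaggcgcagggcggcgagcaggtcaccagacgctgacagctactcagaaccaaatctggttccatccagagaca
Hspa1b: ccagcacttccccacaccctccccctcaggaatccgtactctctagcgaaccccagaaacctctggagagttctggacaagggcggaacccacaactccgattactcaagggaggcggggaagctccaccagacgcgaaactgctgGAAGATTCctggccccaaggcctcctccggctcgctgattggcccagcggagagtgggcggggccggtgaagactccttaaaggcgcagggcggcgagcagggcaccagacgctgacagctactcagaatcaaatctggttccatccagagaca
Hspe1: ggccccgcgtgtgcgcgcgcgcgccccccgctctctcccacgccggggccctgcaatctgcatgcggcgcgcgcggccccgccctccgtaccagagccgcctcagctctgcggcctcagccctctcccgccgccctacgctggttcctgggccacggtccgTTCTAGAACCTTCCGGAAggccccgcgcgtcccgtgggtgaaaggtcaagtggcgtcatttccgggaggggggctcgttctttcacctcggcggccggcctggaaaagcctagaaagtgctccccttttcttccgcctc
The Hspa1a and Hspa1b windows were identical at 296 of 300 bases, and each held 1 match, GAAGATTC, whose first base lay 104 bases before the start. The genes' transcripts are also close to identical over the coding part, and no probe sequence was used here, so signal from Hspa1b in the Hspa1a probe cannot be told apart from signal of Hspa1a. The Hspe1 window shared 285 bases with an Hspd1 window (chr1:55087883-55088182, minus strand). It held 3 overlapping two-unit matches from 89 to 79 bases before the Hspe1 start, which together made 2 matches to the longer three-unit forms GAANNTTCNNGAA and TTCNNGAANNTTC. Over all 32851 windows of 300 bases in the RefSeq table, 15.1% held a two-unit match and 0.603% a three-unit match; of the 27025 genes with a window, 17% and 0.662% did in at least 1 window. Of the 10 genes, 7 had a window; 6 of them held a two-unit match in at least 1 window (Hspa1a, Hspa1b, Hsph1, Hspd1, Hspe1 and Hspb1), and 3 a three-unit match (Hsph1, Hspd1 and Hspe1). Dnajb1 had neither in its 2 windows. Hspd1 had neither in its other window, chr1:55088194-55088493 (minus strand). These absences say only that these letters were not in these bases.

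The values are log2 signals deposited by the authors, 1 per probe and array, from 5.11 to 14.8 with a median of 5.94 on every array. All pairs of arrays correlated between 0.950 and 0.995 over the probes. Terc itself was not analysed here, so the genotypes rest on the labels. Of 16 pluripotent stem cell markers 14 were measured, none stayed below 6 on all arrays (0 of 14), and Pou5f1 lay between 11.13 and 12.70 and Dppa5a between 13.27 and 14.10, so the arrays carry the markers of the labelled cell type. Their mean log2 level was 10.42 to 10.61 in Terc-/-, 10.42 to 10.71 in Terc+/- and 10.47 to 10.70 in Terc+/+. Embryonic fibroblast feeder markers (39 measured of 44, with Postn and Fbln5 below 6 on all arrays) had mean levels of 8.61 to 9.99 in Terc-/-, 7.99 to 9.67 in Terc+/- and 7.60 to 9.74 in Terc+/+, and the lowest value was that of Terc+/+ replicate 3. Of these 39 feeder markers, 23 averaged above 8. The 44 listed are symbols and not all different genes, since Ctgf and Cyr61 are older symbols of Ccn2 and Ccn1, which were measured. Endoderm markers (11 of 11 measured, 5 below 6 on all arrays: Gata4, Afp, Ttr, Apoa1 and Foxa2) had mean levels of 6.50 to 6.65 in Terc-/-, 6.36 to 6.64 in Terc+/- and 6.51 to 6.57 in Terc+/+. The list was mixed, since 3 of the 11 averaged above 8, and Apoa2 lay between 8.25 and 9.26.

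Hspa1a, the inducible cytosolic Hsp70, had the largest differences of the group, in the comparisons with Terc+/+, and none of them passed the test. Its log2 signal was 6.65, 6.33 and 7.12 on the 3 Terc-/- arrays, 6.74, 8.25 and 6.19 on the Terc+/- arrays and 9.37, 9.99 and 8.52 on the Terc+/+ arrays. All 3 Terc+/+ arrays lay above all 6 arrays of the other genotypes, by a gap of 1.40 to the Terc-/- arrays and of 0.27 to the nearest Terc+/- array, replicate 2. Hspa1a averaged 6.70 ± 0.40 on Terc-/- arrays, 7.06 ± 1.07 on Terc+/- arrays and 9.30 ± 0.74 on Terc+/+ arrays (SD, n = 3 each).

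In Terc-/- against Terc+/+ the Hspa1a difference was -2.59 on the log2 scale (SE 0.55), a mean 6.03-fold lower, with a 95% interval of -3.87 to -1.32. It was the lowest difference of all 25697 probes (rank 1), and the next lowest was -2.43. Even so it did not pass the threshold of an adjusted p under 0.05 in limma, a linear model with pooled variance estimates (adjusted p = 0.154, unadjusted p = 0.00154), and by p it ranked 258 of the 25697 probes.

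In Terc+/- against Terc+/+, which shares the Terc+/+ arrays, the Hspa1a difference was -2.23 (SE 0.55, interval -3.51 to -0.96), a mean 4.71-fold lower, and again rank 1 of 25697 with the next lowest at -1.88. It did not pass either (limma adjusted p = 0.286, unadjusted p = 0.00370). Terc-/- and Terc+/- arrays overlapped, and their difference of -0.36 (SE 0.55, interval -1.63 to 0.92) did not pass (limma adjusted p = 0.9996). With array weights, which give less weight to arrays that depart from the model, Hspa1a was called in both comparisons with Terc+/+ (-2.85, limma adjusted p = 0.00472, and -2.17, adjusted p = 0.0399), together with 3845 and 751 of all 25697 probes, against 10 and 0 without the weights. Over the 17 alternatives its difference stayed between -2.98 and -2.25 in Terc-/- against Terc+/+ (adjusted p from 0.00472 to 0.507), and between -2.83 and -1.80 in Terc+/- against Terc+/+ (0.0399 to 0.723).

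**Figure D1:**
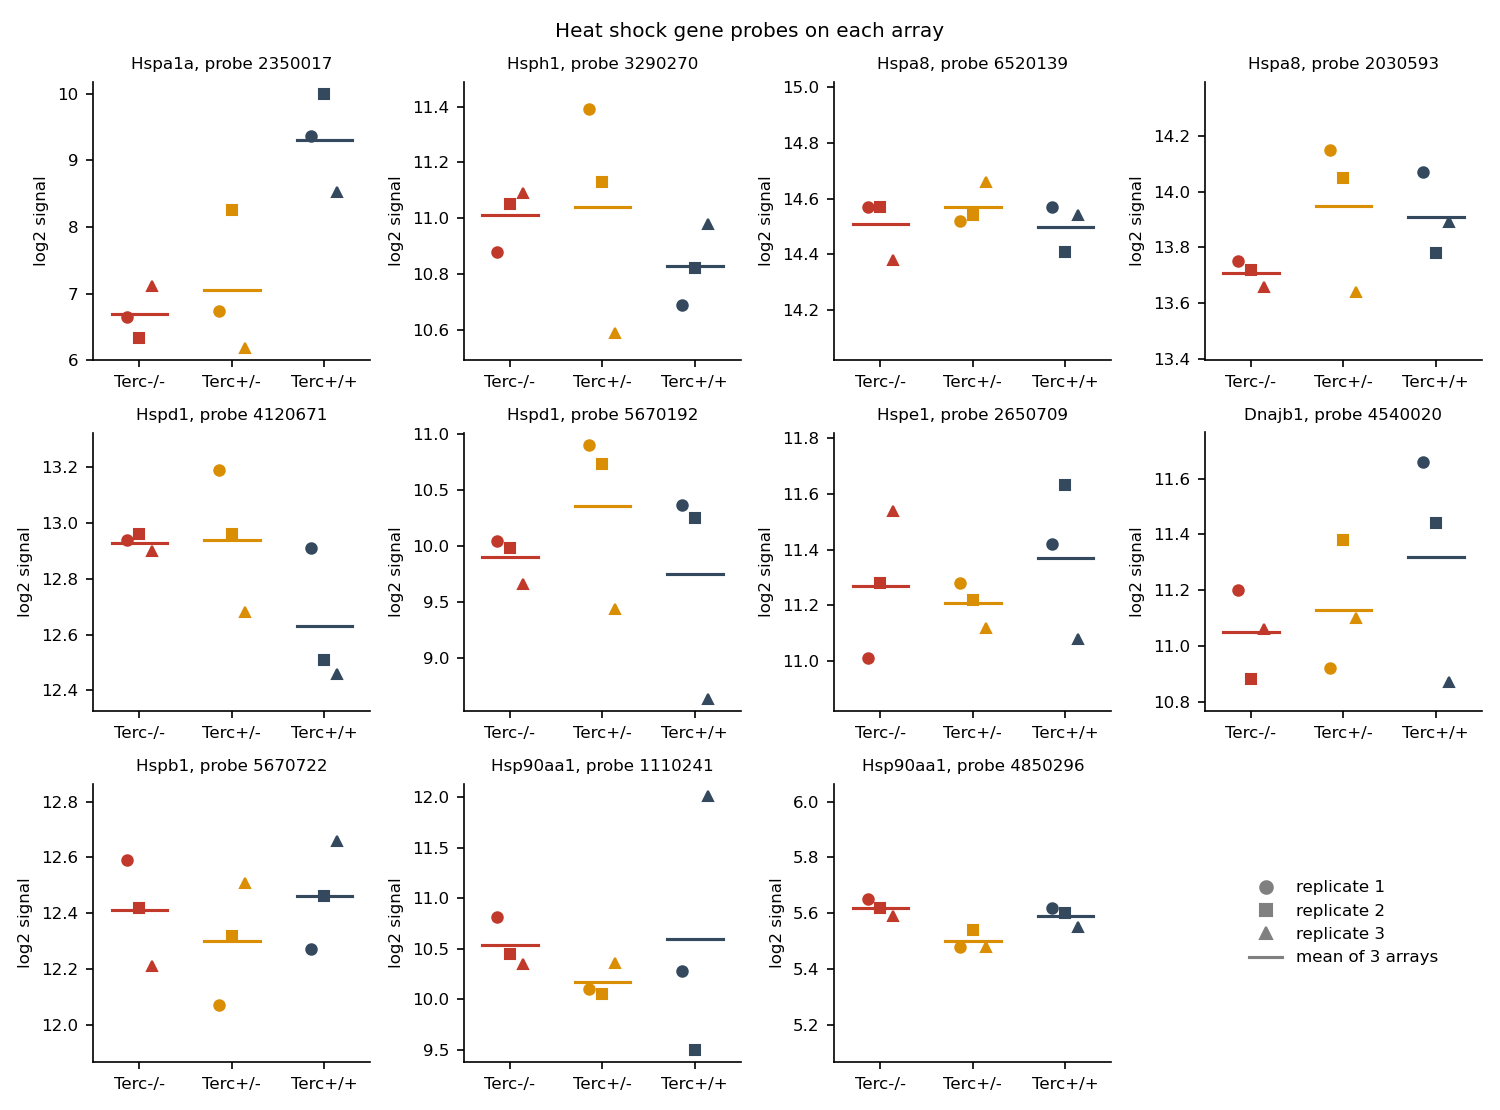
Log2 signal of the 11 heat shock gene probes on each array, 1 panel per probe with its own axis, grouped by genotype; marker shapes show the replicate and bars the mean of 3 arrays. The Hspa1a arrays of Terc+/+ lie at 8.52 to 9.99, above all Terc-/- and Terc+/- arrays, and Hsp90aa1 probe 1110241 reaches 12.01 on Terc+/+ replicate 3 alone.

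No heat shock probe passed the threshold in any comparison (0 of 11 in each, limma). In Terc-/- against Terc+/+ the share of all probes called was 0.0389%, in Terc+/- against Terc+/+ and in Terc-/- against Terc+/- it was 0.0%. At an unadjusted p under 0.05 the count was 1 of 11 in Terc-/- against Terc+/+ (10.3% of all probes) and 1 of 11 in Terc+/- against Terc+/+ (8.34% of all probes), Hspa1a both times, and 0 of 11 in Terc-/- against Terc+/- (1.81%). These counts are close to what the shares over all probes give for 11 probes. Groups did not overlap for 2 of 11 probes in Terc-/- against Terc+/+ (14.8% of all probes), for 2 of 11 in Terc+/- against Terc+/+ (12.2%) and for 1 of 11 in Terc-/- against Terc+/- (7.85%).

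Taking each gene at its brightest probe, 5 of 8 genes had a lower mean and 3 a higher one in every comparison, but not always the same genes. The lower genes were Hspa1a, Hspe1, Dnajb1, Hspb1 and Hsp90aa1 in both comparisons with Terc+/+. In Terc-/- against Terc+/- they were Hspa1a, Hsph1, Hspa8, Hspd1 and Dnajb1. Of all probes, 49.9% had a lower mean in Terc-/- against Terc+/+, 49.6% in Terc+/- against Terc+/+ and 52.6% in Terc-/- against Terc+/-. The median difference was -0.057 in Terc-/- against Terc+/+, -0.166 in Terc+/- against Terc+/+ and -0.023 in Terc-/- against Terc+/-, beside medians over all probes of 0.000, 0.001 and -0.006. With array weights 2 of 11 heat shock probes were called in Terc-/- against Terc+/+ and 1 of 11 in Terc+/- against Terc+/+, in a fit that called 15.0% and 2.92% of all probes. The 7 genes other than Hspa1a lay between -0.28 and 0.30 in Terc-/- against Terc+/+.

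The partners of inducible Hsp70 had smaller differences. Dnajb1, the J-domain protein that stimulates Hsp70 and is itself heat-inducible, was at 11.20, 10.88 and 11.06 in Terc-/-, 10.92, 11.38 and 11.10 in Terc+/- and 11.66, 11.44 and 10.87 in Terc+/+. The genotypes overlapped, since Terc+/+ replicate 3 held the lowest value of all 9 arrays while Terc+/+ replicates 1 and 2 held the 2 highest. The Dnajb1 difference was -0.28 (SE 0.21, interval -0.76 to 0.20, adjusted p = 0.736) in Terc-/- against Terc+/+ and -0.19 (SE 0.21) in Terc+/- against Terc+/+. Without Terc+/+ replicate 3 the Dnajb1 difference was -0.51 in Terc-/- against Terc+/+ (limma adjusted p = 0.156), and with array weights it was -0.64 and called (adjusted p = 0.0152). Without Terc+/+ replicate 1 it was smaller, -0.11 (limma adjusted p = 0.933).

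Hsph1, the Hsp110 nucleotide exchange factor, was at 10.88, 11.05 and 11.09 in Terc-/-, 11.39, 11.13 and 10.59 in Terc+/- and 10.69, 10.82 and 10.98 in Terc+/+. Its lowest and highest arrays were both Terc+/-, so that the spread inside that genotype exceeded the differences between means. The difference was 0.17 in Terc-/- against Terc+/+ (SE 0.19, interval -0.26 to 0.61, limma adjusted p = 0.833) and 0.21 in Terc+/- against Terc+/+ (SE 0.19).

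Hspa8, the constitutive cytosolic Hsp70, had the narrowest range of the 8 genes at its brightest probe, whose signal is just under the highest value of the table, 14.8; whether its range was limited by that was not tested. Probe 6520139 stayed between 14.38 and 14.66 on the 9 arrays, a 1.21-fold range, with 14.57, 14.57 and 14.38 in Terc-/-, 14.52, 14.54 and 14.66 in Terc+/- and 14.57, 14.41 and 14.54 in Terc+/+. The interval of the difference in Terc-/- against Terc+/+ was -0.19 to 0.19, whose far end is a 1.14-fold difference in signal.

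A second Hspa8 probe, 2030593, had 13.75, 13.72 and 13.66 in Terc-/-, 14.15, 14.05 and 13.64 in Terc+/- and 14.07, 13.78 and 13.89 in Terc+/+. Its Terc-/- arrays lay below the Terc+/+ arrays by 0.02, with a difference of -0.20 (SE 0.14, limma adjusted p = 0.692), so the probes of Hspa8 disagreed in size, and this one had a 1.42-fold range.

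The mitochondrial chaperonin genes differed in opposite directions in the comparisons with Terc+/+, and neither passed the test. Hspd1 encodes Hsp60, the folding chamber of the matrix, and Hspe1 encodes Hsp10, its lid. The brighter Hspd1 probe, 4120671, was at 12.94, 12.96 and 12.90 in Terc-/-, 13.19, 12.96 and 12.68 in Terc+/- and 12.91, 12.51 and 12.46 in Terc+/+. Terc+/+ replicates 2 and 3 held the 2 lowest values, and Terc+/+ replicate 1 fell among the Terc-/- arrays.

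The difference for that Hspd1 probe was 0.30 in Terc-/- against Terc+/+ (SE 0.15, interval -0.05 to 0.66, limma adjusted p = 0.564) and 0.32 in Terc+/- against Terc+/+ (SE 0.15, adjusted p = 0.654). The dimmer Hspd1 probe, 5670192, varied more, with 10.05, 9.98 and 9.66 in Terc-/-, 10.90, 10.73 and 9.44 in Terc+/- and 10.37, 10.25 and 8.64 in Terc+/+. It spanned a 4.81-fold range, with replicate 3 lowest in each genotype, and both probes were lowest in Terc+/+ replicate 3 and highest in Terc+/- replicate 1. Without Terc+/+ replicate 3 its difference in Terc-/- against Terc+/+ was -0.41 (limma adjusted p = 0.735), in place of 0.15 with all arrays (SE 0.52, adjusted p = 0.962).

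Hspe1 was at 11.01, 11.28 and 11.54 in Terc-/-, 11.28, 11.22 and 11.12 in Terc+/- and 11.42, 11.63 and 11.08 in Terc+/+, with overlap of all 3 genotypes. Its difference was -0.10 in Terc-/- against Terc+/+ (SE 0.17, interval -0.48 to 0.28, limma adjusted p = 0.900), opposite in sign to that of Hspd1, and it was 0.027 without Terc+/+ replicate 2 and 0.032 without Terc-/- replicate 1. Although an Hspd1 window overlaps the Hspe1 promoter shown above, the 2 genes at their brightest probes had no correlation that passed a test over the 9 arrays. Pearson's r was -0.065 (exact two-sided permutation p = 0.866) and Spearman's rho -0.025 (exact permutation p = 0.958), with 1 pair of genes computed. Without the 2 arrays farthest from the median of Hspe1, r was 0.530, so the sign of r rests on those arrays.

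Hsp90aa1, the stress-inducible cytosolic Hsp90, spread most widely inside Terc+/+. Probe 1110241 had 10.81, 10.45 and 10.35 in Terc-/-, 10.10, 10.05 and 10.36 in Terc+/- and 10.28, 9.50 and 12.01 in Terc+/+. Terc+/+ replicate 3 was the highest of the 9 arrays and Terc+/+ replicate 2 the lowest, a 5.69-fold range inside 1 genotype, while Hspa1a was lowest among the Terc+/+ arrays in replicate 3. The difference in Terc-/- against Terc+/+ was -0.06 (SE 0.54, interval -1.30 to 1.18) and became 0.65 without Terc+/+ replicate 3 (limma adjusted p = 0.231). In Terc+/- against Terc+/+ it was -0.43 (SE 0.54) and became 0.28 without that array (adjusted p = 0.718).

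The other Hsp90aa1 probe, 4850296, lay between 5.48 and 5.65 on all arrays, near the lowest value of the table, and its differences of at most 0.12 in size did not pass the test. Terc+/- arrays (5.48, 5.54 and 5.48) lay below both the Terc-/- arrays (5.65, 5.62 and 5.59) and the Terc+/+ arrays (5.62, 5.60 and 5.55).

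Hspb1, the small heat shock protein Hsp27 (mouse Hsp25), which holds unfolded proteins without ATP, was at 12.59, 12.42 and 12.21 in Terc-/-, 12.07, 12.32 and 12.51 in Terc+/- and 12.27, 12.46 and 12.66 in Terc+/+. The genotypes overlapped fully. The difference was -0.06 in Terc-/- against Terc+/+ (SE 0.15, interval -0.41 to 0.29) and -0.16 in Terc+/- against Terc+/+ (SE 0.15).

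**Figure D2:**
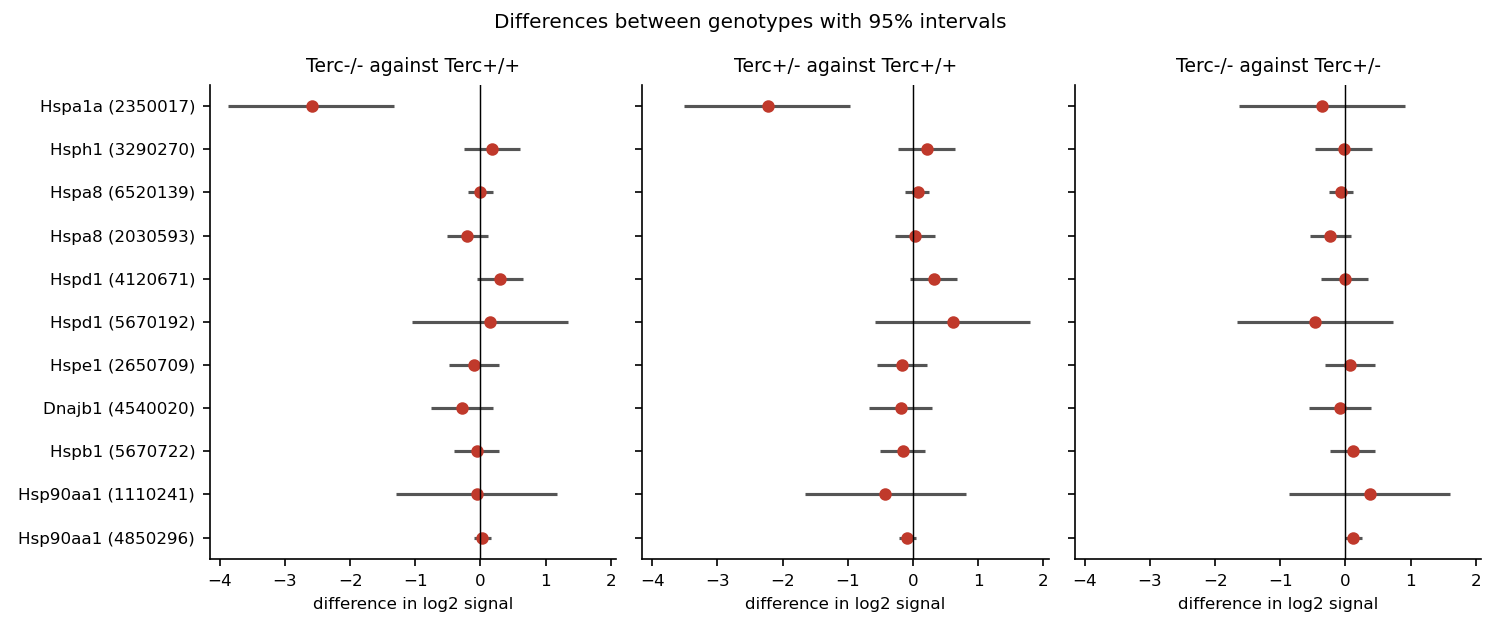
Differences in log2 signal between genotypes for the 11 heat shock gene probes, with the first-named genotype minus the second; points are limma estimates and lines 95% intervals, not adjusted for the number of probes. The Hspa1a interval lies below 0 in both comparisons with Terc+/+ (-3.87 to -1.32 and -3.51 to -0.96), and the other intervals include 0.

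The genes differed in how far they ranged over the 9 arrays, a range that includes differences between genotypes. Hspa1a spanned 3.81 on the log2 scale (13.98-fold), from Terc+/- replicate 3 to Terc+/+ replicate 2, a wider range than 99.9% of all probes. Hsp90aa1 spanned 2.51 (99.2%) and the dimmer Hspd1 probe 2.26 (98.9%), whereas Hspb1 (0.59), Hspe1 (0.62), the brighter Hspd1 probe (0.73), Dnajb1 (0.79) and Hsph1 (0.81) lay nearer to the median range of all probes, 0.44.

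Among 11359 probes of other named genes with a mean above 6, those whose pattern over the 9 arrays was most like Hspa1a belonged to Map2k6, a kinase that activates p38 (Pearson's r = 0.978), Eif5a, a translation factor (0.965), Pus1, a pseudouridine synthase of RNA (0.964), Ddit3, the stress transcription factor CHOP (0.956), and Dmtn, an actin-bundling protein (0.954). They were picked as the highest of 11359 correlations over 9 arrays that share the genotype difference, so these values describe the pattern and carry no test. All 5 had Terc+/- replicate 2 as the highest Terc+/- array, as Hspa1a did, which their choice by correlation with Hspa1a favours.

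Their differences were smaller. Ddit3 had 7.19, 7.17 and 7.59 in Terc-/-, 7.44, 7.73 and 7.48 in Terc+/- and 8.39, 8.71 and 7.99 in Terc+/+, with a difference of -1.05 in Terc-/- against Terc+/+ (limma adjusted p = 0.117). Eif5a averaged 12.09 in Terc-/-, 12.23 in Terc+/- and 12.56 in Terc+/+, with -0.47 (adjusted p = 0.211). None of the 5 passed the threshold in any comparison.

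**Figure D3:**
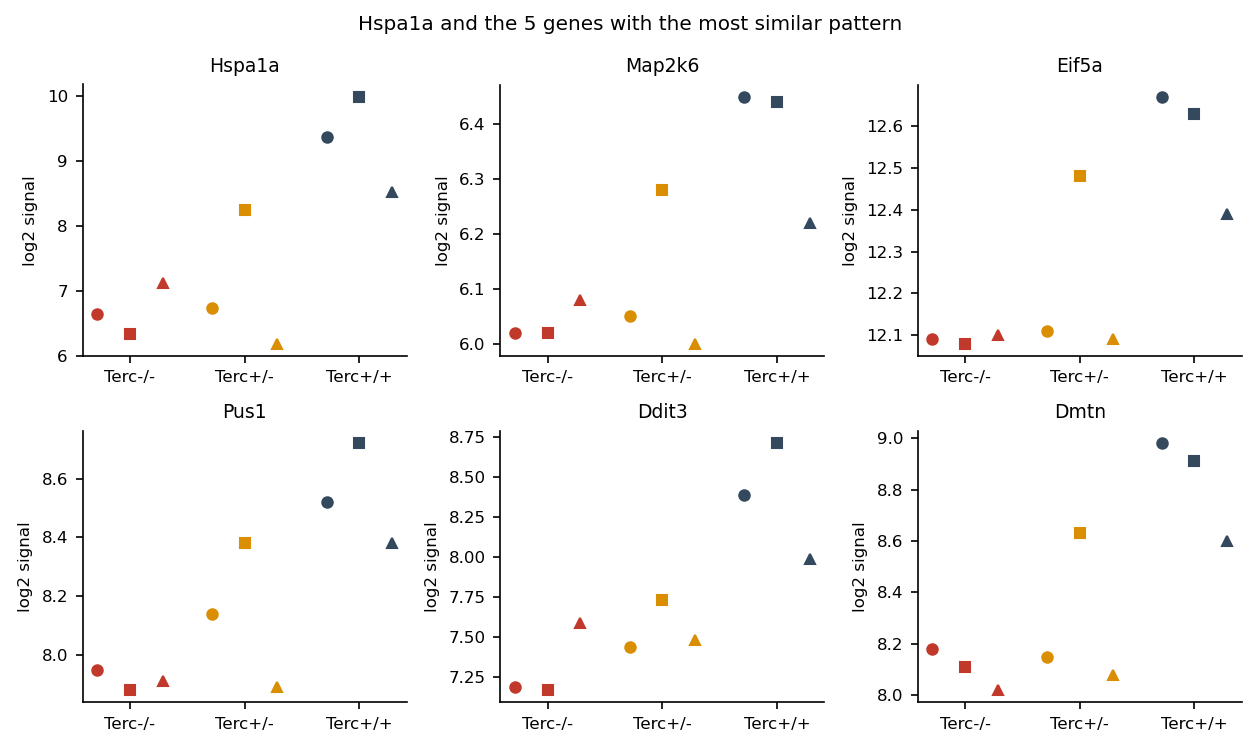
Log2 signal of Hspa1a and of the 5 genes whose pattern over the 9 arrays was most like it, 1 panel per gene with its own axis; each point is 1 array, coloured by genotype, and marker shapes show the replicate. In each panel Terc+/- replicate 2 is the highest Terc+/- array, which the choice of the 5 genes by likeness to Hspa1a favours. That array lies above the lowest Terc+/+ array in Map2k6 (6.28 against 6.22), Eif5a (12.48 against 12.39) and Dmtn (8.63 against 8.60). It is level with the lowest Terc+/+ array in Pus1 (8.38 each) and below it in Ddit3 (7.73 against 7.99).

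Fibroblast markers varied between arrays, although the feeder cells were removed before extraction, so each gene was set against a feeder marker score, the mean deviation of the 39 measured markers from their own means. Terc-/- arrays scored -0.21, 0.11 and 1.16, Terc+/- arrays 0.85, -0.72 and -0.84, and Terc+/+ arrays -0.04, 0.91 and -1.22. In these bulk samples fewer cells of a type and less RNA per cell cannot be told apart, and whether the marker RNA came from feeder cells or from other cells that express these genes was not tested. The correlation of Hspa1a with the score did not pass (r = 0.051 with an exact two-sided permutation p = 0.888, which stayed 0.888 adjusted over 8 genes; rho = 0.183 with p = 0.644, adjusted 0.708). Leaving out the 2 arrays whose scores lay farthest from the median gave r = 0.337, and r was 0.379 around the genotype means. With the score in the model its difference in Terc-/- against Terc+/+ was -2.75 (limma adjusted p = 0.0731).

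Hspe1 was higher and Hspa8 lower on arrays with a higher score, at p-values for r under 0.05 that did not pass adjustment over the 8 genes. For Hspe1, r was 0.778 (exact permutation p = 0.0155, adjusted 0.0946) and rho 0.833 (exact permutation p = 0.00827, adjusted 0.0661), with r = 0.661 without the 2 farthest arrays and 0.866 around the genotype means. For Hspa8, r was -0.738 (exact permutation p = 0.0236, adjusted 0.0946) and rho -0.647 (exact permutation p = 0.0657, adjusted 0.175), with r = -0.775 without the 2 farthest arrays and -0.754 around the genotype means.

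Hspb1 (r = -0.644, rho = -0.667) and Hsp90aa1 (r = -0.623, rho = -0.500) were lower on arrays with a higher score, with exact permutation p-values for r of 0.0641 and 0.0557 (adjusted 0.128 each) and for rho of 0.0589 and 0.178 (adjusted 0.175 and 0.355). Their r without the 2 farthest arrays was -0.400 and -0.518, and around the genotype means -0.786 and -0.745. The r values of Hsph1 (0.360, rho 0.300), Hspd1 (0.344, rho 0.226) and Dnajb1 (0.063, rho 0.150) had exact permutation p-values of 0.341, 0.365 and 0.866 (adjusted 0.487, 0.487 and 0.888), and for rho of 0.437, 0.558 and 0.708 (adjusted 0.699, 0.708 and 0.708). Without the 2 farthest arrays their r was 0.411, 0.025 and -0.100, and around the genotype means 0.387, 0.397 and 0.175. Around the genotype means none of the 8 passed (0 of 8, exact permutation inside the genotypes, smallest adjusted p = 0.0741, for Hspe1).

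**Figure D4:**
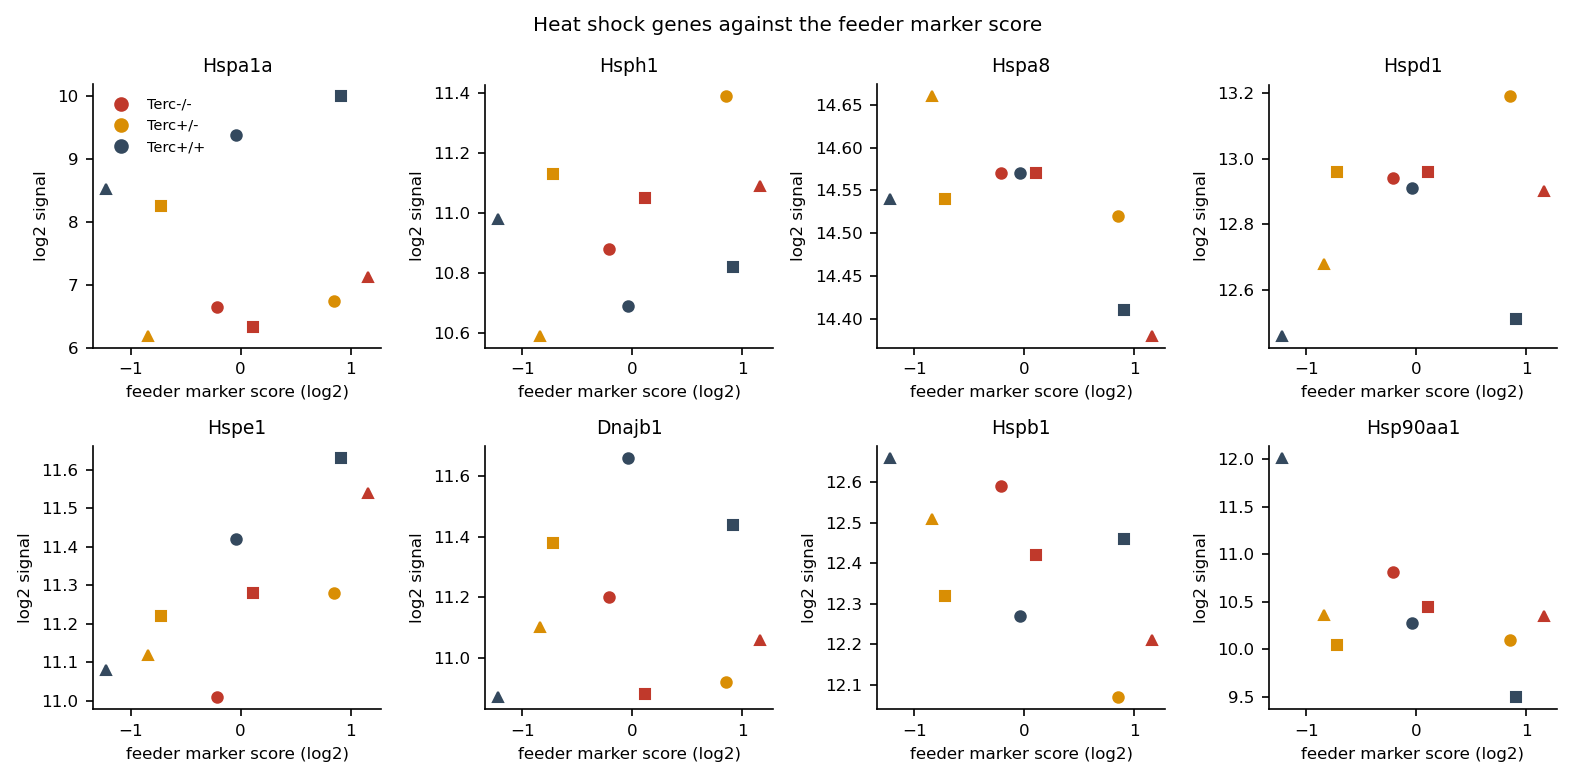
Log2 signal of each heat shock gene at its brightest probe against the feeder marker score of the array, 1 panel per gene with its own axis; each point is 1 array, coloured by genotype, and marker shapes show the replicate. Hspe1 lies higher (r = 0.778) and Hspa8 lower (r = -0.738) on arrays with more feeder marker signal, while the 3 Terc+/+ arrays of Hspa1a (8.52 to 9.99) lie above the other 6 arrays, whatever their score.

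The other genes of the chaperone network were read from 7 lists with 80 measured genes, each at its brightest probe. None passed the threshold in any comparison (0 of 80 in each, limma), whereas with array weights 16 did in Terc-/- against Terc+/+ (15.0% of all probes in that fit) and 2 in Terc+/- against Terc+/+ (2.92%). Without Terc+/+ replicate 3 it was 3 in Terc-/- against Terc+/+ (1.43% of all probes in that fit). At an unadjusted p under 0.05, 10 of 80 were past it in Terc-/- against Terc+/+, 5 higher and 5 lower, beside 10.3% of all probes. In Terc+/- against Terc+/+ the count was 7 of 80, 3 higher and 4 lower, beside 8.34% of all probes. In Terc-/- against Terc+/- it was 0 of 80, beside 1.81%. From each list the gene with the smallest p in a comparison is described below, a choice that favours genes whose genotypes do not overlap. Genotypes did not overlap for 14.8% of all probes in Terc-/- against Terc+/+ and for 12.2% in Terc+/- against Terc+/+.

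In the list of heat shock factors 4 of 6 genes were measured, Hsf2, Hsf4, Hsf5 and Hsbp1, and Hsf1 was not among them. Hsbp1 encodes a protein that binds these factors and is not itself a transcription factor. It had the list's largest difference in Terc-/- against Terc+/+ (0.34, SE 0.33, limma adjusted p = 0.807). Genotype means of Hsf4 and Hsf5 were 5.47 to 5.96, near the lowest value of the table. In Terc-/- against Terc+/+ the list's median was 0.16, with 0 of 4 past an unadjusted p under 0.05, beside 10.3% of all probes. Hsf2, which forms mixed trimers with Hsf1, was at 8.14, 8.14 and 8.09 in Terc-/-, 8.21, 8.20 and 8.09 in Terc+/- and 7.87, 7.31 and 8.37 in Terc+/+, a difference of 0.27 in Terc-/- against Terc+/+ (SE 0.22, limma adjusted p = 0.758). Its Terc+/+ arrays lay on both sides of the others. Hsf4 had the smallest p of the list in the other comparisons, with -0.29 (SE 0.18) in Terc+/- against Terc+/+ and 0.14 (SE 0.18) in Terc-/- against Terc+/-.

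In the other Hsp70 and Hsp110 genes (8 measured of 8) the median in Terc-/- against Terc+/+ was -0.010. There 0 of 8 passed an unadjusted p under 0.05, beside 10.3% of all probes. The smallest p-values were those of Hspa12a in Terc-/- against Terc+/+ (-0.13, SE 0.07), Hspa14 in Terc+/- against Terc+/+ (-0.52, SE 0.33) and Hspa4l in Terc-/- against Terc+/- (0.10, SE 0.08). Hspa14 was at 5.44, 5.44 and 5.59 in Terc+/- and 5.51, 5.58 and 6.93 in Terc+/+, so its value came from Terc+/+ replicate 3. In the other small heat shock proteins (7 of 8) the median was -0.071. Hspb8, a small heat shock protein that works with Bag3, was at 7.82, 7.93 and 8.72 in Terc-/- and 8.74, 9.23 and 7.73 in Terc+/+ (-0.41, SE 0.39, adjusted p = 0.798). Hspb7 had the smallest p in the comparisons of Terc+/- with Terc+/+ (-0.19, SE 0.08) and of Terc-/- with Terc+/- (0.12, SE 0.08), at signals between 5.38 and 5.70.

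The other J-domain proteins (13 of 17) had a median of 0.16 in Terc-/- against Terc+/+, with 3 of 13 higher and 0 lower at an unadjusted p under 0.05, beside 10.3% of all probes in either direction. The count was 2 of 13 higher and 0 lower in Terc+/- against Terc+/+, beside 8.34% of all probes in either direction. In Terc-/- against Terc+/- it was 0 of 13, beside 1.81%. Dnaja2, a cytosolic cochaperone of Hsp70, was at 9.13, 9.47 and 9.21 in Terc-/-, 9.14, 9.08 and 8.95 in Terc+/- and 8.50, 8.41 and 8.97 in Terc+/+. All Terc-/- arrays lay above all Terc+/+ arrays, a difference of 0.64 (SE 0.16) that did not pass (limma adjusted p = 0.196). Dnajc2, a J-domain protein that acts at ribosomes, had the smallest p in Terc+/- against Terc+/+ (0.41, SE 0.12, adjusted p = 0.391) and Dnajb4 in Terc-/- against Terc+/- (0.29, SE 0.19).

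The Hsp70 and Hsp90 cochaperones (22 of 23) had a median of -0.028 in Terc-/- against Terc+/+, with 0 higher and 3 lower at an unadjusted p under 0.05 (10.3% of all probes in either direction). Ppp5c, a phosphatase that binds Hsp90, was at 9.41, 9.04 and 9.06 in Terc-/-, 8.89, 9.59 and 9.32 in Terc+/- and 9.79, 9.56 and 10.10 in Terc+/+. The Terc-/- arrays lay below the Terc+/+ arrays, with a difference of -0.64 (SE 0.20, limma adjusted p = 0.310), and the difference in Terc+/- against Terc+/+ was -0.55 (SE 0.20, adjusted p = 0.510). In Terc-/- against Terc+/- the smallest p was that of Ptges3, the Hsp90 cochaperone p23 (-0.28, SE 0.16).

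The mitochondrial chaperones and proteases (14 of 16) had a median of 0.074 in Terc-/- against Terc+/+, with 1 higher and 2 lower at an unadjusted p under 0.05 (10.3% of all probes in either direction). Spg7, paraplegin, a subunit of the AAA protease that faces the mitochondrial matrix, was at 9.18, 9.05 and 9.00 in Terc-/-, 8.81, 9.36 and 9.27 in Terc+/- and 9.76, 9.60 and 9.60 in Terc+/+. All Terc+/+ arrays lay above the 6 others, with differences of -0.58 in Terc-/- against Terc+/+ (SE 0.14, limma adjusted p = 0.191) and -0.51 in Terc+/- against Terc+/+ (SE 0.14, adjusted p = 0.331). Dnajc15 had the smallest p in Terc-/- against Terc+/- (0.21, SE 0.17).

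Genes of TRiC, the cytosolic chaperonin of actin and tubulin, and of prefoldin, which feeds it (12 of 14), had a median of 0.14 in Terc-/- against Terc+/+ and in Terc+/- against Terc+/+. Cct2, a TRiC subunit, was at 7.58, 7.79 and 7.80 in Terc-/-, 7.56, 7.81 and 7.52 in Terc+/- and 7.36, 7.37 and 7.25 in Terc+/+. Its Terc+/+ arrays were the 3 lowest, with differences of 0.39 in Terc-/- against Terc+/+ (SE 0.10, limma adjusted p = 0.206) and 0.30 in Terc+/- against Terc+/+ (SE 0.10, adjusted p = 0.432). Pfdn2, a prefoldin subunit, had the smallest p in Terc-/- against Terc+/- (-0.30, SE 0.19).

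**Figure D5:**
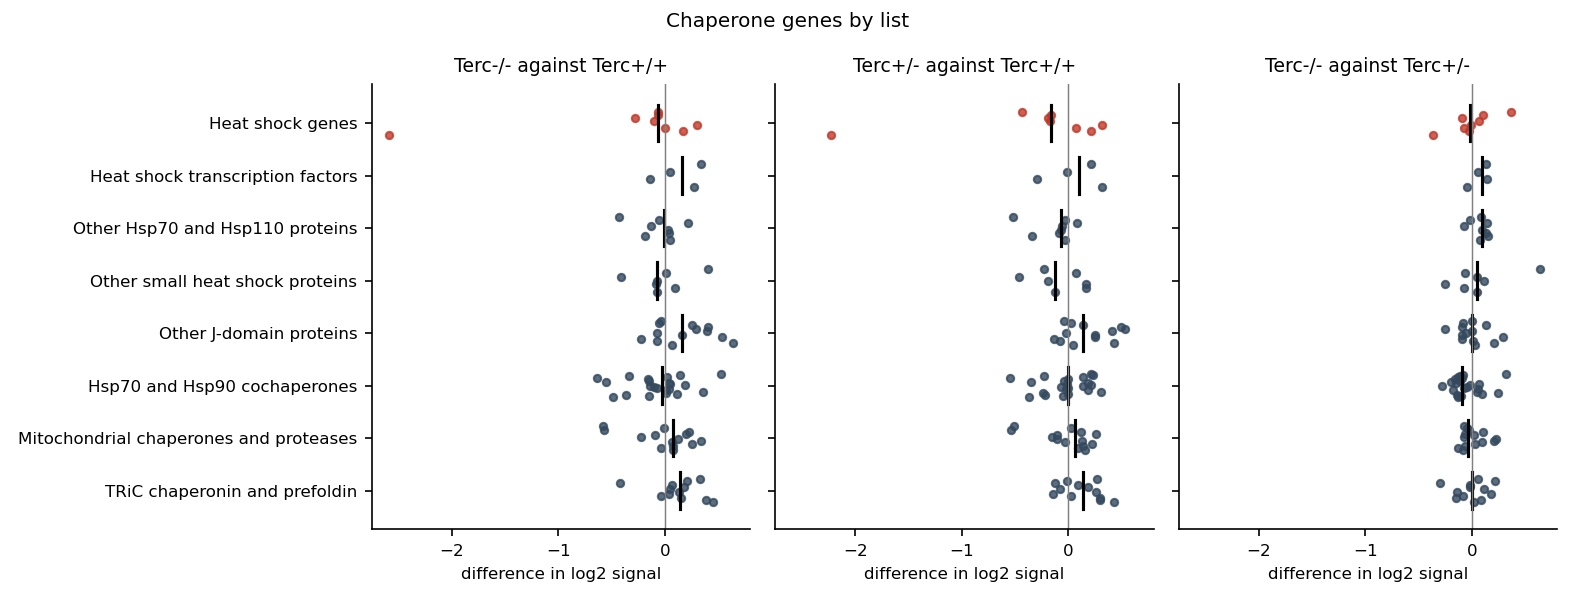
Differences in log2 signal by list for the 8 heat shock genes and the 80 measured genes of 7 further chaperone lists, each at its brightest probe, with the first-named genotype minus the second; each point is 1 gene and the black bar the median. Hspa1a stands apart at -2.59 and -2.23 in the comparisons with Terc+/+, and every other gene shown lies within 1 log2 unit of 0.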

How the data were processed

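Expression was measured on bead arrays in 9 ntESC samples of 3 Terc genotypes, 3 arrays each. The log2 values of the value table deposited by the authors were used; the sources used here name no software and no background correction. The scale was read from the values: every array shares the same extremes and quartiles, as quantile-normalized values do, and a natural log would exceed a 16-bit scanner's range. A second deposited table (18 columns of signals and detection p-values) is named by chip and position only, matches no label and was not used, so a detection filter was not applied. Of 25697 probes, 23141 had 1 gene symbol, 0 several and 2556 none; all 23141 matched RefSeq GRCm38.p6 by Entrez identifier and 0 symbols changed.

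All 25697 probes were fitted in 1 model of the 3 genotypes with limma 3.58.1 in R 4.3.3 (6 residual and 2.08 prior degrees of freedom, median standard error 0.11). On simulated data the fit was first required to return estimates near the shifts added. The number of probes called was not part of that requirement. The threshold was a two-sided p under 0.05 after Benjamini-Hochberg adjustment over all probes. The number of arrays limits the precision. Where a gene needed 1 value, its brightest probe on average was taken, and probes that disagreed are named. The chaperone and marker lists and the 10 genes were chosen with earlier results of these data known. All 10 genes were to be named, with the smallest p of each chaperone list and the 5 genes most like the widest-ranging member. Permutation tests were exact over all pairings (numpy 2.4.6), and for deviations from genotype means over the 216 orders inside the genotypes (smallest possible p 0.00463). Correlations planned within Hspa1a and Hspa1b and within Hsp90aa1 and Hsp90ab1 were not run, since 1 gene of each pair has no probe. Alternatives were the arrays fitted, variance model, array weights, cyclic loess, a minimum mean of 6, 1 probe per gene, the replicate number as a block, the feeder score as a covariate, and each replicate left out.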

Additional observations from a re-analysis of the deposited data

How the results depend on the processing

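With 3 arrays per genotype, the standard errors of the log2 differences were 0.06 (the dim Hsp90aa1 probe) to 0.55 (Hspa1a) over the 11 probes, and signals near the lowest value of the table have no dependable direction. Of the differences of single probes under the alternatives, 510 kept direction and side of the threshold, 3 became called (Hspa1a in both comparisons with Terc+/+ and Dnajb1 in 1, all with array weights) and 36 turned direction; of the correlations 91 kept and 5 turned. The cause of these shifts was not tested.

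All probes called in Terc-/- against Terc+/+ were 10 and became 0 with only the arrays of the 2 genotypes, with trend and robust variance, with cyclic loess, with a mean above 6 and with the replicate block, 154 with the feeder score as a covariate and 3845 with array weights. Leaving out 1 array gave 0 to 367, the highest without Terc+/+ replicate 3. In Terc+/- against Terc+/+ the count was 0 and became 216 with the feeder score, 751 with array weights and 0 to 28 without 1 array, again highest without Terc+/+ replicate 3. With array weights, heat shock probes called were 2 in Terc-/- against Terc+/+ and 1 in Terc+/- against Terc+/+, and other chaperone genes 16 and 2; without 1 array the chaperone genes were 0 to 3 in Terc-/- against Terc+/+. The median of the heat shock genes in Terc-/- against Terc+/+ was 0.029 with array weights, 0.031 with the feeder score and -0.094 to 0.038 without 1 array, and in Terc+/- against Terc+/+ -0.043 with array weights and -0.17 to 0.0077 without 1 array.

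Same-numbered samples deviated from their genotype means with correlations from -0.597 to 0.452. Correlations of differently numbered samples were not set beside them, so whether the replicate numbers pair the samples cannot be told from these values. With the number as a block Hspa1a had adjusted p-values of 0.282 in Terc-/- against Terc+/+ and 0.420 in Terc+/- against Terc+/+ (limma).

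Directions turned in Terc-/- against Terc+/+ with array weights for Hsp90aa1 probe 1110241 (0.25), Hspd1 probe 5670192 (-0.38), Hspb1 (0.12) and Hspa8 probe 6520139 (-0.021), with cyclic loess for that Hspa8 probe (-0.057), and with the feeder score for Hsp90aa1 (0.23), Hspd1 probe 5670192 (-0.080) and Hspb1 (0.025). In Terc+/- against Terc+/+ they turned for Hspa8 probe 2030593 with array weights (-0.091) and cyclic loess (-0.023) and for Hspb1 with array weights (0.014). In Terc-/- against Terc+/- they turned for Hspd1 probe 4120671 with array weights (0.0094) and for Hspe1 with the feeder score (-0.057). Without 1 array, the ranges that crossed 0 in Terc-/- against Terc+/+ were -0.61 to 0.65 for Hsp90aa1, -0.25 to 0.032 for Hspe1, -0.41 to 0.46 for Hspd1 probe 5670192, -0.15 to 0.043 for Hspb1 and -0.047 to 0.064 for Hspa8 probe 6520139. In Terc+/- against Terc+/+ they were -0.97 to 0.28 for Hsp90aa1 and -0.068 to 0.19 for Hspa8 probe 2030593. In Terc-/- against Terc+/- they were -0.80 to 0.24 for Hspa1a, -0.26 to 0.15 for Hsph1, -0.14 to 0.11 for Hspd1 probe 4120671, -0.062 to 0.20 for Hspe1, -0.19 to 0.037 for Dnajb1 and -0.0079 to 0.22 for Hspb1.

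The correlation of Dnajb1 with the score was -0.100 without the 2 farthest arrays and -0.202 to 0.218 without 1 array, and that of Hspa1a -0.281 to 0.212. Hspd1 with Hspe1 had r = 0.053 with cyclic loess, 0.212 with deviations, 0.530 without the 2 farthest arrays and -0.380 to 0.383 without 1 array.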
